A study of Mus musculus with 6 samples.

Results

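The genes of cholesterol synthesis and of its control by the sterol sensor pathway were followed in immortalized mouse embryonic fibroblasts (iMEF) by RNA-seq. The set was 30 genes chosen by name and ordered by pathway step, from Acat2, which joins acetyl-CoA units, through Dhcr7, which carries out a last reduction, to the regulators and transporters of sterols. Of the 30, 29 had a row among the 22369 protein-coding genes listed, and 28 passed a filter of at least 0.5 RPKM (read counts scaled to exon length and library size) averaged over all libraries. Hmgcs1 was not analysed here, and Abcg1 was too low to be tested.

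Cholesterol is built in the endoplasmic reticulum from acetyl-CoA by way of mevalonate, isoprenoids, squalene and lanosterol. When membrane sterol is low, Scap carries the transcription factor SREBP2, the product of Srebf2, to the Golgi, where it is cut and released to the nucleus to switch on nearly every enzyme of the pathway. When sterol is plentiful, the Insig proteins hold Scap in the endoplasmic reticulum, and Insig1 is itself an SREBP target, while oxysterols switch on efflux genes such as Abca1 through the LXR receptors.

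The 3 lines were Nrdc+/+ iMEF from wild-type mice, Nrdc-/- iMEF from mice lacking nardilysin (Nrdc, a metalloendopeptidase), and Nrdc-/-WT iMEF, which are Nrdc-/- cells given wild-type Nrdc back by a lentivirus. All carried the strain label C57BL/6, were immortalized, and were harvested while growing asynchronously in medium with fetal bovine serum, a source of lipoprotein cholesterol. The methods call the replicates of all experiments biological, from cells a few passages after infection, and do not say how they were separated. Each line had 2 libraries, and the p-values measure the spread between them. Each genotype is represented by a line and not by several animals. No RNA-seq library of cells infected with empty virus was analysed, so infection and the return of Nrdc cannot be told apart.

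The libraries held 16385565 to 19764315 reads over the listed genes. Nrdc, listed as Nrd1, stood at 27.9 and 28.9 RPKM in Nrdc+/+ iMEF, 1.53 and 1.51 in Nrdc-/- iMEF, and 5.89 and 5.40 in Nrdc-/-WT iMEF. RPKM divides by the exon length of the gene, while the lentivirus carries a cDNA that may cover only a part of it, so the Nrdc-/-WT value may not be on the same scale as the endogenous one. At the protein level, by immunoblotting and immunocytochemistry, the study reported similar Nrdc in Nrdc-/-WT and Nrdc+/+ iMEF. Of 11 fibroblast markers, 10 reached 1 RPKM in each line, the exception being Thy1, which was at 0 in both Nrdc-/- libraries. The summed fibroblast markers ranged from 4577 to 5043 RPKM in Nrdc+/+ iMEF, from 7052 to 7098 in Nrdc-/- iMEF and from 7507 to 7550 in Nrdc-/-WT iMEF. Single markers differed more than the sums. Mean Pdgfra was 4.70 RPKM in Nrdc+/+ iMEF, 53.4 in Nrdc-/- iMEF and 54.3 in Nrdc-/-WT iMEF, and mean Col3a1 was 37.1, 265.5 and 270.4. Sparc differed little, at 597.0, 655.0 and 631.9. Only Thy1 had its highest mean in Nrdc+/+ iMEF, at 0.436 RPKM. Summed adipocyte markers were at most 3.24 RPKM and hepatocyte markers at most 0.642 RPKM, with Alb at 0 in every library. Macrophage markers summed to between 6.73 and 11.98 RPKM, with Emr1 at 0 in every library, endothelial markers to at most 1.70 and epithelial markers to at most 0.618. The part of these markers in the results was not tested.

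The 3 lines were compared pairwise, to ask which sterol genes differed where Nrdc was lost and which changed when it was put back. A gene was called when limma gave an adjusted p under 0.05 over all 11598 genes tested and the fold was at least 1.3. Between Nrdc+/+ and Nrdc-/- iMEF, 12 of the 28 sterol genes were called, 3 higher and 9 lower in Nrdc+/+ iMEF. Over all genes tested, 62.1% were called in that comparison, 30.2% higher and 32% lower, beside 42.9% of the sterol genes. Between Nrdc-/-WT and Nrdc-/- iMEF, 22 of the 28 were called, 1 higher and 21 lower in Nrdc-/-WT iMEF. There 43.2% of all genes were called, 20.5% higher and 22.7% lower. The median log2 fold change of the sterol genes was -0.23 in the first comparison, beside -0.01 over all genes tested, and -0.87 in the second, beside -0.02. Both comparisons share the same Nrdc-/- libraries. Fewer cells of a kind and less RNA per cell cannot be told apart in such bulk libraries.

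**Figure D1:**
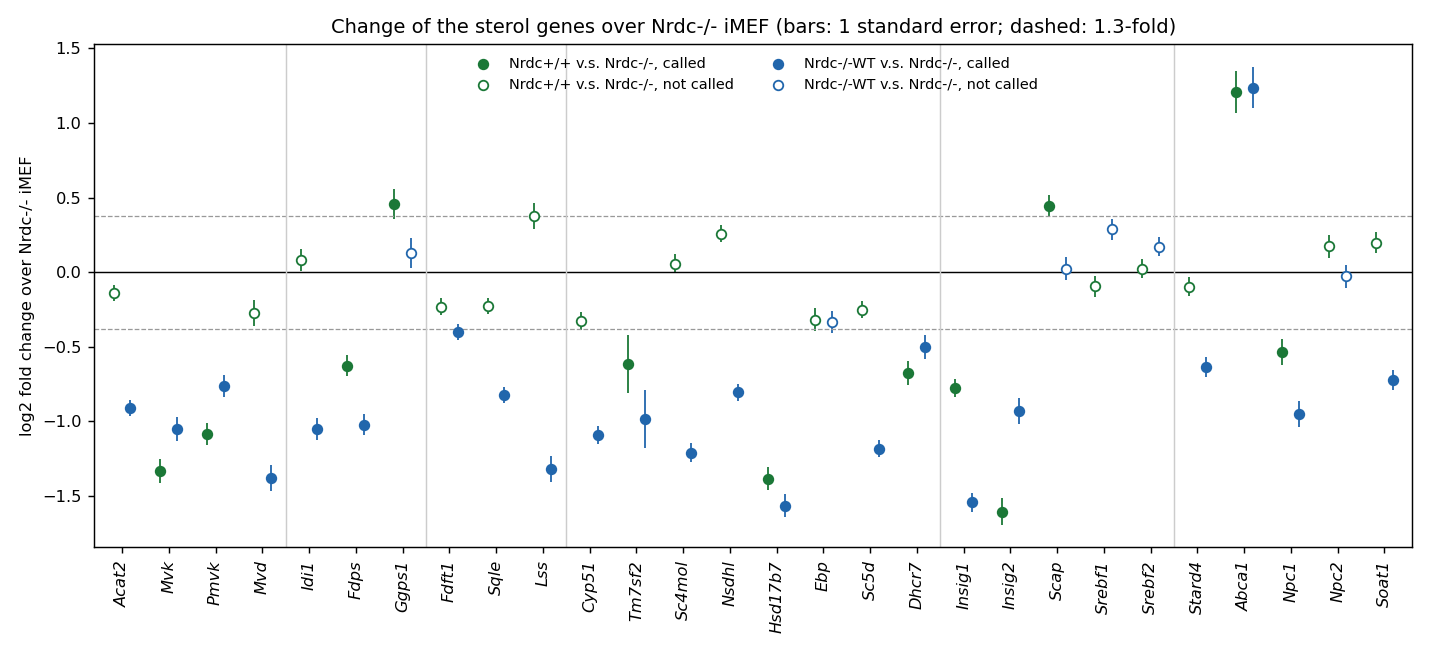
Log2 fold change of each of the 28 tested sterol genes over Nrdc-/- iMEF (y axis), in pathway order (x axis), for Nrdc+/+ iMEF (green) and Nrdc-/-WT iMEF (blue). Filled points were called by limma, open points were not, bars are 1 standard error and dashed lines mark a 1.3-fold change. In Nrdc-/-WT iMEF 21 genes were called lower, while in Nrdc+/+ iMEF 9 were, and Abca1 was called higher in both.

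Because these comparisons share the Nrdc-/- libraries, an error in those libraries enters both, and joint calls are given only by gene. Mvk, Hsd17b7, Insig1 and Insig2 were among those called lower in both Nrdc-expressing lines. Idi1, Lss and Sc4mol were among those called lower in Nrdc-/-WT iMEF and not called in Nrdc+/+ iMEF. Abca1 alone was called higher in both lines, Ggps1 and Scap were called higher in Nrdc+/+ iMEF and not called in Nrdc-/-WT iMEF, and 4 (Ebp, Srebf1, Srebf2 and Npc2) were called in neither.

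The direct test of Nrdc+/+ against Nrdc-/-WT iMEF called 17 of the 28, 15 higher and 2 lower in Nrdc+/+ iMEF, or 60.7% of the genes tested. Over all genes 60.4% were called, 30.6% higher and 29.9% lower, so the share called was near the background while the direction was mostly one way. The median log2 fold change was 0.41 beside 0.02 over all genes. Nrdc-/-WT iMEF had the lowest mean of the 3 lines for 19 of the 28, or 67.9%, beside 30.6% of all genes tested.

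Promoter windows from RefSeq (GRCm38.p6), which run from 250 bases before to 50 after a gene's start, were found for 24 of the 30 genes, with Sc4mol matched under its current symbol Msmo1. The genes with no match were Fdps, Fdft1, Sqle, Stard4, Abcg1 and Npc1. SREBPs bind sterol regulatory elements next to the general factors NF-Y and Sp1. The NF-Y motif CCAAT was found on either strand in 21 of the 24 genes, or 87.5%, against 41.1% of all 27025 genes with a window. Among the genes tested here for expression, 20 of 23 sterol genes (87.0%) and 44.3% of 8079 genes held it. The Sp1 motif GGGCGG was found in 91.7% of the 24 against 38.2% of all genes, and in 91.3% against 71.0% among tested genes. The E-box CACGTG was present in 6 of the 24, or 25%, against 8.09% of all genes, and in 26.1% against 12.1% among tested genes. The sterol regulatory element TCACNCCAC, in this strict spelling, matched only Hmgcs1 of the 24, and 1.44% of all genes held it. Hmgcs1 was not analysed for expression, so among tested genes 0 of 23 sterol genes held it, against 1.32%. These matches are descriptions of letters in a window and were given no test.

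The 220 bases before the start are shown for genes of each pattern, with matches to CCAAT or its reverse complement ATTGG, and to CACGTG, in capitals. Mvk and Hsd17b7 stand for genes lower in both Nrdc-expressing lines, Idi1 and Sc4mol for genes lower in Nrdc-/-WT iMEF alone, Insig1 for the sterol feedback genes and Abca1 for the gene that was higher.
Mvk, chr5:114444049-114444268, plus strand: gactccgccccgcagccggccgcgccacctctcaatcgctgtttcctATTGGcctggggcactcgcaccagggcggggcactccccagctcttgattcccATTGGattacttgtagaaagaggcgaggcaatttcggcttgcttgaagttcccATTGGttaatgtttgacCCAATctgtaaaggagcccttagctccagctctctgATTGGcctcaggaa
Hsd17b7, chr1:169969206-169969425, minus strand: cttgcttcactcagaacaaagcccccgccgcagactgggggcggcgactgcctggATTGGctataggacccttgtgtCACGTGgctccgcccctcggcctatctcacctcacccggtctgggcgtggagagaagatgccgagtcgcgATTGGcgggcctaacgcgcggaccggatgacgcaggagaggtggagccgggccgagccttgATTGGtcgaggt
Idi1, chr13:8885386-8885605, plus strand: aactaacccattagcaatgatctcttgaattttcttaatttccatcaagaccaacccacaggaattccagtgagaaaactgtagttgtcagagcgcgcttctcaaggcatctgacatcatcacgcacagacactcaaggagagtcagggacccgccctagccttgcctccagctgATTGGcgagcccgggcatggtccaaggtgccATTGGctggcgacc
Sc4mol, chr8:64733579-64733798, minus strand: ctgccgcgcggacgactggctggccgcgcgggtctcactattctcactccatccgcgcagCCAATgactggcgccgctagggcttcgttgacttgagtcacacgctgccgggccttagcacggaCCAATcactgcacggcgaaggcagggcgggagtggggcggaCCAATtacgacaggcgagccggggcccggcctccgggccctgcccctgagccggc
Insig1, chr5:28071192-28071411, plus strand: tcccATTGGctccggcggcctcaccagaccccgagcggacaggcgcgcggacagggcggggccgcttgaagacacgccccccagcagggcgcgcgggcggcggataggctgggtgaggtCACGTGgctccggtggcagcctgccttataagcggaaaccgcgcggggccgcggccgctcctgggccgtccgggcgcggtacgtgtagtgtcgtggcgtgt
Abca1, chr4:53159896-53160115, minus strand: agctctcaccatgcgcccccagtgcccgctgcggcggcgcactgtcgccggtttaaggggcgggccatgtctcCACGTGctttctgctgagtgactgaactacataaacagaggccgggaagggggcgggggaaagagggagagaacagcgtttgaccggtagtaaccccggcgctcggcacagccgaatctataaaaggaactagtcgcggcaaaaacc

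Mvk held 5 NF-Y matches in this stretch, Hsd17b7 and Sc4mol 3 each, Idi1 2, Insig1 1 and Abca1 0. Acat2, Scap and Abca1 were the tested sterol genes with no NF-Y match anywhere in their windows. The motif was therefore present both in genes that were lower in both Nrdc-expressing lines and in genes that were lower in Nrdc-/-WT iMEF alone. It was also present in Ggps1, called higher in Nrdc+/+ iMEF, and in Ebp, Srebf1, Srebf2 and Npc2, called in neither line against Nrdc-/- iMEF. Of the genes without a match, Acat2 was called lower in Nrdc-/-WT iMEF, while Scap and Abca1 were called higher in Nrdc+/+ iMEF. With the motif in 20 of the 23 tested sterol genes that had a window, its presence could hardly separate the patterns, and no conclusion is drawn from it.

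The first steps make mevalonate and phosphorylate it. Mvk, mevalonate kinase (mm9 chr5:114894278-114910600), stood at 18.6 and 20.2 RPKM in Nrdc+/+ iMEF, 46.6 and 52.0 in Nrdc-/- iMEF, and 22.5 and 24.7 in Nrdc-/-WT iMEF. Both Nrdc-/- libraries were far above the other 4, and the groups did not overlap. Relative to Nrdc-/- iMEF, the log2 difference was -1.33 ± 0.08 (SE, adjusted p = 1.68e-06 by limma) for Nrdc+/+ iMEF and, for Nrdc-/-WT iMEF, -1.05 ± 0.08 (adjusted p = 1.75e-05). Pmvk, phosphomevalonate kinase, behaved in the same way, with 22.6 and 21.8 RPKM in Nrdc+/+ iMEF, 46.4 and 48.3 in Nrdc-/- iMEF, and 26.03 and 29.66 in Nrdc-/-WT iMEF. Its means in Nrdc+/+ and Nrdc-/-WT iMEF were 46.9% and 58.8% of that in Nrdc-/- iMEF, and both falls were called.

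Mvd, mevalonate diphosphate decarboxylase, was lower in Nrdc-/-WT iMEF than in either other line. It measured 35.8 and 33.8 RPKM in Nrdc+/+ iMEF, 38.4 and 46.2 in Nrdc-/- iMEF, and 16.2 and 15.9 in Nrdc-/-WT iMEF. The fall from Nrdc-/- to Nrdc-/-WT iMEF was 2.60-fold (log2 -1.38 ± 0.09, adjusted p = 7.08e-06 by limma), whereas the log2 difference between Nrdc+/+ and Nrdc-/- iMEF was -0.27 ± 0.09 and was not called. Without Nrdc-/- replicate 1 that difference was -0.41 and was called. Acat2 was at 71.1 and 68.9 RPKM in Nrdc+/+ iMEF, 76.1 and 78.1 in Nrdc-/- iMEF, and 41.1 and 40.6 in Nrdc-/-WT iMEF, again with only the last line low. The Nrdc-/-WT mean was 53.0% of the Nrdc-/- mean. Acat3, a close relative of Acat2 that could share reads with it, stood at 14.5 and 14.9 RPKM in Nrdc-/-WT iMEF against 29.1 and 29.4 in Nrdc-/- iMEF, and the ratio of Acat2 to Acat3 ranged from 2.32 to 2.84 over the 6 libraries.

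The isoprenoid steps branch toward prenylated proteins, dolichol and ubiquinone as well as sterols. Fdps, farnesyl diphosphate synthase, had the highest level per length of the sterol genes, at 253.5 and 268.4 RPKM in Nrdc+/+ iMEF, 409.1 and 396.9 in Nrdc-/- iMEF, and 189.9 and 206.8 in Nrdc-/-WT iMEF. All 3 lines were separate, with Nrdc-/- iMEF highest. Both falls from Nrdc-/- iMEF were called, by 0.63 on the log2 scale in Nrdc+/+ iMEF and by 1.02 in Nrdc-/-WT iMEF.

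Idi1, isopentenyl diphosphate isomerase (mm9 chr13:8884747-8891697), was one of the enzymes whose Nrdc+/+ and Nrdc-/- levels overlapped. It measured 84.3 and 93.0 RPKM in Nrdc+/+ iMEF, 87.8 and 80.1 in Nrdc-/- iMEF, and 41.3 and 39.4 in Nrdc-/-WT iMEF. The log2 difference was 0.08 ± 0.07 between Nrdc+/+ and Nrdc-/- iMEF (adjusted p = 0.357 by limma) and 1.13 ± 0.07 between Nrdc+/+ and Nrdc-/-WT iMEF (adjusted p = 2.89e-06). Ggps1, which makes the geranylgeranyl diphosphate used for protein prenylation, was the only enzyme called higher in Nrdc+/+ than in Nrdc-/- iMEF. Its levels were 11.8 and 11.7 RPKM in Nrdc+/+ iMEF, 8.92 and 8.12 in Nrdc-/- iMEF, and 10.2 and 8.52 in Nrdc-/-WT iMEF. The 2 libraries of Nrdc-/-WT iMEF overlapped those of Nrdc-/- iMEF. Arid4b shares 7.11% of the exon bases of Ggps1 on the other strand, and strand is not stated for the counting.

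**Figure D2:**
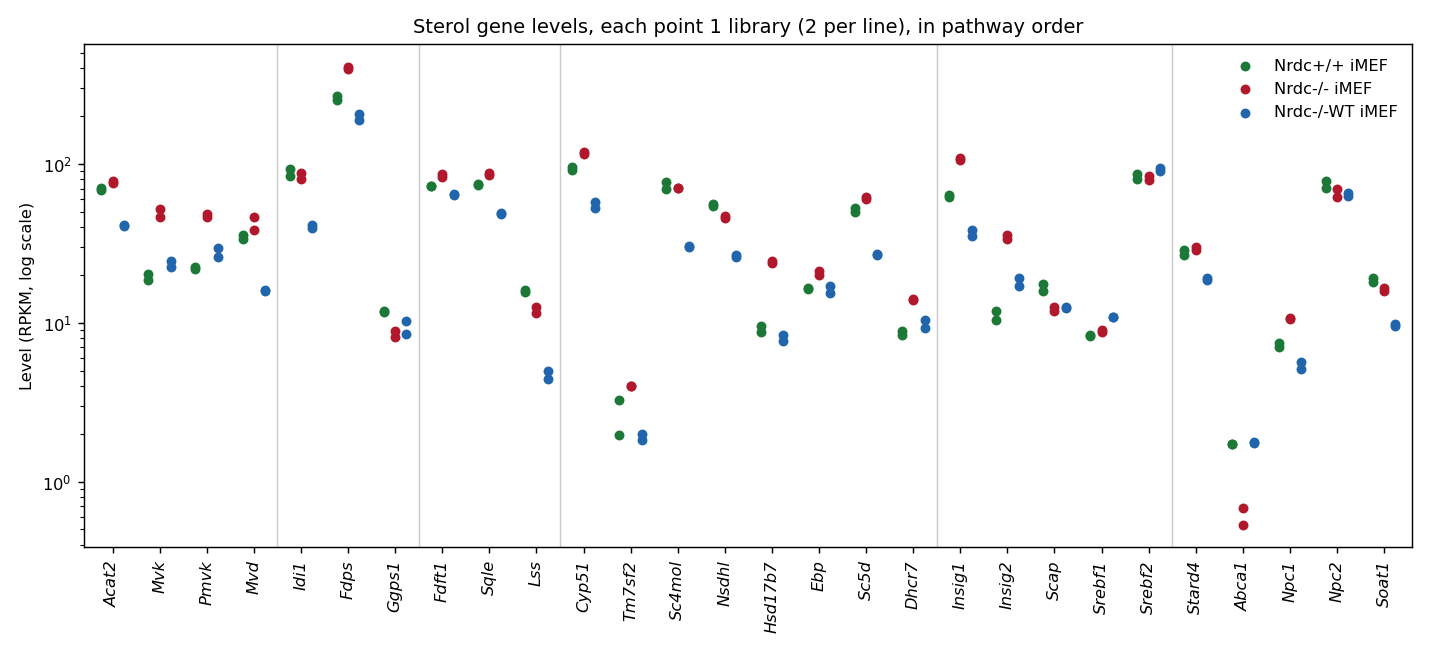
Level of 28 sterol genes in RPKM (y axis, log scale) in pathway order (x axis), with each point 1 of 6 libraries, 2 per line. Vertical lines separate the roles, from the mevalonate steps at the left to transport at the right. Nrdc-/-WT libraries (blue) lie lowest for most enzymes, Nrdc-/- libraries (red) stand apart as high for Mvk, Pmvk, Hsd17b7, Insig1 and Insig2 and as low for Abca1.

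The steps from squalene to lanosterol commit carbon to sterols. Lss, lanosterol synthase (mm9 chr10:75994333-76019883), had the largest difference of the sterol genes between Nrdc+/+ and Nrdc-/-WT iMEF. It stood at 15.99 and 15.53 RPKM in Nrdc+/+ iMEF, 11.6 and 12.6 in Nrdc-/- iMEF, and 4.42 and 4.98 in Nrdc-/-WT iMEF. The lines followed each other without overlap, with Nrdc+/+ iMEF highest. Nrdc+/+ iMEF was 3.24-fold above Nrdc-/-WT iMEF (log2 1.70 ± 0.09, adjusted p = 7.81e-07 by limma), and Nrdc-/-WT iMEF was 2.50-fold below Nrdc-/- iMEF. The log2 difference of 0.37 between Nrdc+/+ and Nrdc-/- iMEF was just under the 1.3-fold limit, and was called without Nrdc+/+ replicate 2 (0.39) or Nrdc-/- replicate 2 (0.43).

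Sqle, squalene epoxidase, an oxygen-dependent and rate-limiting enzyme, measured 73.4 and 74.7 RPKM in Nrdc+/+ iMEF, 88.1 and 85.6 in Nrdc-/- iMEF, and 48.5 and 49.3 in Nrdc-/-WT iMEF. The Nrdc-/-WT mean was 56.3% of the Nrdc-/- mean, a called fall. Within a library the ratio of Sqle to Lss was 4.59 and 4.81 in Nrdc+/+ iMEF, 7.59 and 6.78 in Nrdc-/- iMEF, and 10.97 and 9.89 in Nrdc-/-WT iMEF. These neighbouring steps thus did not change in proportion, and the ratios of the 3 lines did not overlap. Fdft1, squalene synthase, had its called fall just past the limit, at 72.5 and 72.5 RPKM in Nrdc+/+ iMEF, 83.3 and 87.1 in Nrdc-/- iMEF, and 65.0 and 63.9 in Nrdc-/-WT iMEF. The fall from Nrdc-/- to Nrdc-/-WT iMEF was 1.32-fold. It was under 1.3-fold and not called with median ratio scaling (log2 -0.375), upper quartile scaling (-0.347), quantile normalization (-0.313) or voom (-0.357). Without Nrdc-/- replicate 2 it was also under 1.3-fold (log2 -0.37). Ctsb, which shares 26.9% of the exon bases of Fdft1 on the other strand, was at 172.5 to 231.6 RPKM, and its part in the Fdft1 values was not tested.

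Of the 8 enzymes that turn lanosterol into cholesterol, 7 were called lower than in Nrdc-/- iMEF in the Nrdc-/-WT line (87.5%, beside 22.7% of all genes) and 3 in the Nrdc+/+ line (37.5%, near the 32% of all genes). Hsd17b7, a sterol ketoreductase of C4 demethylation (mm9 chr1:171879666-171899372), showed the largest falls of any enzyme. Its levels were 8.75 and 9.50 RPKM in Nrdc+/+ iMEF, 24.6 and 23.9 in Nrdc-/- iMEF, and 8.33 and 7.70 in Nrdc-/-WT iMEF. Nrdc-/- iMEF alone was high. Set against Nrdc-/- iMEF, the log2 change was -1.39 ± 0.08 in Nrdc+/+ iMEF (adjusted p = 1.09e-06 by limma) and -1.57 ± 0.08 in Nrdc-/-WT iMEF (adjusted p = 1.98e-06). The log2 difference between Nrdc+/+ and Nrdc-/-WT iMEF was 0.18 ± 0.08 and missed the threshold (adjusted p = 0.0643).

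Sc4mol and Nsdhl act beside Hsd17b7 in the removal of the C4 methyl groups, yet they were not lower in Nrdc+/+ than in Nrdc-/- iMEF. Sc4mol, the C4 sterol methyl oxidase (mm9 chr8:67196936-67212589), stood at 69.4 and 77.1 RPKM in Nrdc+/+ iMEF, 70.5 and 70.2 in Nrdc-/- iMEF, and 30.5 and 29.9 in Nrdc-/-WT iMEF. Nsdhl, the sterol decarboxylase, stood at 54.4 and 56.3 RPKM in Nrdc+/+ iMEF, 47.2 and 45.4 in Nrdc-/- iMEF, and 26.7 and 26.1 in Nrdc-/-WT iMEF. For both genes the 2 Nrdc-/-WT libraries were the lowest, at 43.0% of the Nrdc-/- mean for Sc4mol and 57.0% for Nsdhl.

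Cyp51, the lanosterol demethylase, and Sc5d, the sterol C5 desaturase, followed the same order of lines as Sqle. Cyp51 measured 92.1 and 95.1 RPKM in Nrdc+/+ iMEF, 118.9 and 116.4 in Nrdc-/- iMEF, and 57.2 and 52.9 in Nrdc-/-WT iMEF. Sc5d measured 50.2 and 53.0 RPKM in Nrdc+/+ iMEF, 62.3 and 60.6 in Nrdc-/- iMEF, and 27.3 and 26.5 in Nrdc-/-WT iMEF. In both genes Nrdc-/- iMEF was highest, Nrdc-/-WT iMEF was lowest and no line overlapped another. The falls from Nrdc-/- to Nrdc-/-WT iMEF were called, at log2 -1.09 for Cyp51 and -1.18 for Sc5d, while those to Nrdc+/+ iMEF, at -0.33 and -0.25, stayed under 1.3-fold.

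Dhcr7, which reduces 7-dehydrocholesterol to cholesterol, was high in Nrdc-/- iMEF alone, at 13.9 and 14.1 RPKM, against 8.42 and 8.87 in Nrdc+/+ iMEF and 10.4 and 9.26 in Nrdc-/-WT iMEF. Both falls were called, at log2 -0.68 ± 0.08 and -0.50 ± 0.08. Ebp, the sterol isomerase, was the enzyme of this group with no call in any comparison, at 16.5 and 16.3 RPKM in Nrdc+/+ iMEF, 19.9 and 21.1 in Nrdc-/- iMEF, and 17.1 and 15.3 in Nrdc-/-WT iMEF. Without Nrdc-/-WT replicate 1 its log2 difference between Nrdc-/-WT and Nrdc-/- iMEF was -0.41 and was called. Tm7sf2, a sterol C14 reductase and the lowest enzyme, was at 3.24 and 1.96 RPKM in Nrdc+/+ iMEF, 4.01 and 4.01 in Nrdc-/- iMEF, and 1.98 and 1.83 in Nrdc-/-WT iMEF. Its Nrdc+/+ libraries were the farthest apart, relative to their mean, of any sterol gene tested, and 1110014N23Rik shares 15.3% of its exon bases on the same strand. Its fall between Nrdc-/- and Nrdc+/+ iMEF (log2 -0.62 ± 0.20, adjusted p = 0.0199 by limma) rested on 1 library, with log2 -0.29 and no call without Nrdc+/+ replicate 2. It also lost its call without either Nrdc-/- library, with adjusted p = 0.0944 without replicate 1 and 0.0933 without replicate 2.

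Summed over the 18 synthesis enzymes, the level was 962.5 and 998.6 RPKM in Nrdc+/+ iMEF, 1258 and 1251 in Nrdc-/- iMEF, and 644.7 and 653.3 in Nrdc-/-WT iMEF. The 3 lines did not overlap, and each of the first 4 steps of the pathway, taken as groups, kept this order. Such sums follow the most abundant genes, as with Fdps, whose mean was 403.0 of 495.5 RPKM for the isoprenoid steps in Nrdc-/- iMEF. By gene the order did not always hold. Idi1, Ggps1, Lss, Sc4mol and Nsdhl had their highest mean in Nrdc+/+ iMEF, and Mvk, Pmvk and Dhcr7 their lowest. Reads of these enzymes made up 0.380% of the reads over listed genes in both Nrdc-/- libraries, 0.311% and 0.323% in the Nrdc+/+ libraries, and 0.201% and 0.200% in the Nrdc-/-WT libraries. By gene, the Nrdc-/-WT line had 16 of the 18 called lower than Nrdc-/- iMEF (88.9%, beside 22.7% of all genes) and 0 higher, at a median of -1.004 on the log2 scale. The Nrdc+/+ line had 6 called lower than Nrdc-/- iMEF (33.3%, near the 32% of all genes) and 1 higher, with a median of -0.26. The summed transport genes differed least, at 131.5 and 127.3 RPKM in Nrdc+/+ iMEF, 118.5 and 126.9 in Nrdc-/- iMEF, and 101.3 and 98.9 in Nrdc-/-WT iMEF.

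**Figure D3:**
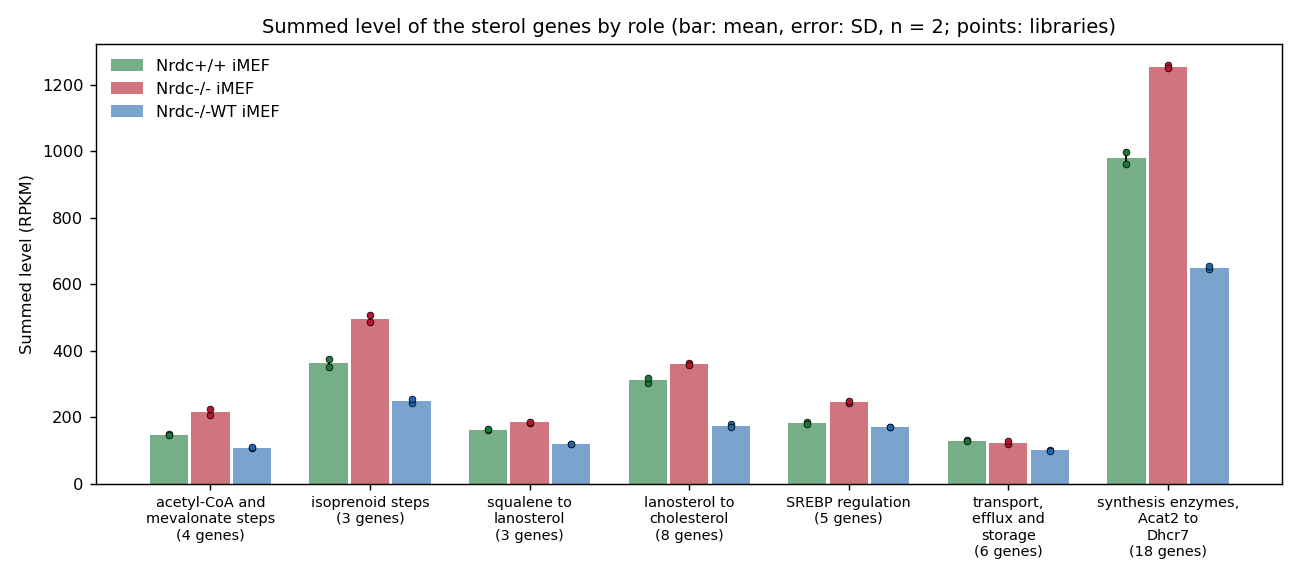
Summed level in RPKM (y axis) of the sterol genes of each role (x axis) in the 3 lines. Bars are means of 2 libraries, error bars are SD and points are libraries, and the bars at the right add up the 4 enzyme groups at the left. The enzyme sum is highest in Nrdc-/- iMEF at 1251 and 1258 RPKM and lowest in Nrdc-/-WT iMEF at 644.7 and 653.3.

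The mRNAs of the sensor machinery did not move as a group. Srebf2, which encodes SREBP2, was at 85.9 and 80.6 RPKM in Nrdc+/+ iMEF, 79.3 and 84.6 in Nrdc-/- iMEF, and 90.5 and 94.0 in Nrdc-/-WT iMEF. Its Nrdc+/+ and Nrdc-/- libraries overlapped, and the Nrdc-/-WT libraries were slightly above them, at log2 0.17 ± 0.06 over Nrdc-/- iMEF, which is under 1.3-fold and was not called. Srebf1, which encodes the SREBP1 isoforms, stood at 8.37 and 8.24 RPKM in Nrdc+/+ iMEF, 8.78 and 8.998 in Nrdc-/- iMEF, and 10.9 and 10.9 in Nrdc-/-WT iMEF. It was called lower in Nrdc+/+ than in Nrdc-/-WT iMEF at 1.303-fold, on the edge of the limit, and the call was lost without Nrdc+/+ replicate 2.

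Scap, the sterol-sensing escort of SREBPs, was called higher in Nrdc+/+ iMEF, with 17.57 and 15.97 RPKM, than in Nrdc-/- iMEF, with 11.9 and 12.6. Its levels of 12.4 and 12.6 RPKM in Nrdc-/-WT iMEF overlapped those of Nrdc-/- iMEF. The log2 difference from Nrdc-/- iMEF was 0.44 ± 0.08, but 0.37 and not called without Nrdc+/+ replicate 1. A gene on the opposite strand, 5830462I19Rik, shares 18.9% of the exon bases of Scap and was at 0.0726 RPKM or less in every library.

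Both Insig genes, which encode the anchors that keep Scap in the endoplasmic reticulum, were highest in Nrdc-/- iMEF. Insig1 (mm9 chr5:28397952-28405201) stood at 62.3 and 63.5 RPKM in Nrdc+/+ iMEF, 109.8 and 106.2 in Nrdc-/- iMEF, and 38.5 and 35.4 in Nrdc-/-WT iMEF. All 3 lines were separate, and Nrdc-/-WT iMEF was lowest. The fall from Nrdc-/- iMEF was 1.71-fold to Nrdc+/+ iMEF and 2.92-fold to Nrdc-/-WT iMEF (adjusted p = 8.7e-06 and 7.22e-07 by limma).

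Insig2 (mm9 chr1:123200930-123229166) had the other order, being lowest in Nrdc+/+ iMEF. It stood at 10.5 and 11.9 RPKM in Nrdc+/+ iMEF, 33.5 and 35.5 in Nrdc-/- iMEF, and 19.01 and 16.99 in Nrdc-/-WT iMEF. It fell 3.04-fold from Nrdc-/- to Nrdc+/+ iMEF (log2 -1.61 ± 0.09, adjusted p = 9.1e-07 by limma), the largest fall of the sterol genes in that comparison, and 1.91-fold to Nrdc-/-WT iMEF. The difference between Nrdc+/+ and Nrdc-/-WT iMEF was called in opposite directions for the pair, at log2 0.77 ± 0.06 for Insig1 and -0.67 ± 0.09 for Insig2. The ratio of Insig1 to Insig2 within a library was 5.95 and 5.33 in Nrdc+/+ iMEF, 3.28 and 2.99 in Nrdc-/- iMEF, and 2.02 and 2.08 in Nrdc-/-WT iMEF, with no overlap between lines.

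**Figure D4:**
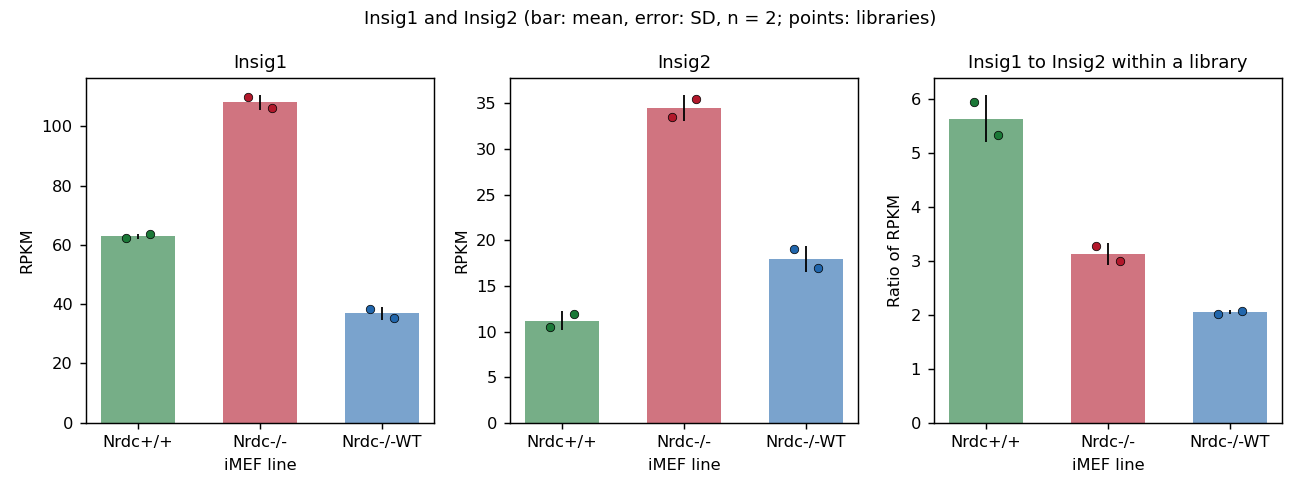
Insig1 and Insig2 in RPKM (left and middle, y axes) and their ratio within a library (right, y axis) in the 3 lines (x axes). Bars are means of 2 libraries, error bars are SD and points are libraries. Both genes are highest in Nrdc-/- iMEF, but Insig1 is lowest in Nrdc-/-WT iMEF and Insig2 in Nrdc+/+ iMEF, so the ratio runs from 5.33 or more in Nrdc+/+ iMEF to 2.08 or less in Nrdc-/-WT iMEF.

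Abca1, the exporter that passes cholesterol to apolipoproteins (mm9 chr4:53043659-53172767), was the sterol gene called higher in both Nrdc-expressing lines. It was low throughout, at 1.72 and 1.73 RPKM in Nrdc+/+ iMEF, 0.535 and 0.681 in Nrdc-/- iMEF, and 1.78 and 1.75 in Nrdc-/-WT iMEF. The 2 Nrdc-/- libraries, with 96 and 128 reads, lay below the other 4, with 339 to 393 reads. On the log2(RPKM + 0.25) scale, which understates the change of low genes, it was higher than in Nrdc-/- iMEF by 1.21 ± 0.14 in Nrdc+/+ iMEF (adjusted p = 7.85e-05 by limma) and by 1.24 ± 0.14 in Nrdc-/-WT iMEF (adjusted p = 0.000136). The log2 difference between the Nrdc-expressing lines was -0.03 ± 0.14 (adjusted p = 0.855). Abcg1, a second exporter, gave 4 and 6 reads in Nrdc+/+ iMEF, 1 and 2 in Nrdc-/- iMEF and 0 in both Nrdc-/-WT libraries, where a count of 0 allows up to 3 reads, and was not tested.

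Npc1 and Npc2 together move cholesterol out of the lysosome, and they did not change together. Npc1, the membrane partner, was at 7.01 and 7.50 RPKM in Nrdc+/+ iMEF, 10.8 and 10.5 in Nrdc-/- iMEF, and 5.65 and 5.11 in Nrdc-/-WT iMEF, and both falls from Nrdc-/- iMEF were called. Npc2, the soluble partner, was at 78.0 and 70.3 RPKM in Nrdc+/+ iMEF, 61.9 and 69.5 in Nrdc-/- iMEF, and 65.6 and 63.1 in Nrdc-/-WT iMEF, and was not called in any comparison. Thus the ratio of Npc2 to Npc1 was lowest in Nrdc-/- iMEF, at 5.74 and 6.63, against 9.38 or more in each other library.

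Soat1, which esterifies cholesterol for storage, and Stard4, a cytosolic sterol carrier and SREBP target, were lowest in Nrdc-/-WT iMEF. Soat1 stood at 18.1 and 19.2 RPKM in Nrdc+/+ iMEF, 16.5 and 15.9 in Nrdc-/- iMEF, and 9.82 and 9.61 in Nrdc-/-WT iMEF. Stard4 stood at 26.6 and 28.5 RPKM in Nrdc+/+ iMEF, 28.8 and 30.2 in Nrdc-/- iMEF, and 18.5 and 19.3 in Nrdc-/-WT iMEF. Both were called lower in Nrdc-/-WT iMEF than in either other line, and neither was called between Nrdc+/+ and Nrdc-/- iMEF.

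Another 5 lists of related genes were counted in the same fit, with the shares over all genes as given above. Of 27 genes that move or cut SREBPs or turn over the Insig proteins, 15 were lower and 4 higher in Nrdc+/+ than in Nrdc-/- iMEF (median log2 -0.49), and 11 were lower and 2 higher in Nrdc-/-WT against Nrdc-/- iMEF (median -0.27). Mbtps2, the site-2 protease that frees SREBPs, was at 3.36 and 3.60 RPKM in Nrdc+/+ iMEF, 12.1 and 11.5 in Nrdc-/- iMEF, and 5.91 and 5.46 in Nrdc-/-WT iMEF. The 3 lines did not overlap for it, with Nrdc+/+ iMEF lowest. Vcp, the ATPase that extracts proteins bound for destruction from the membrane, and Faf2, its adaptor, were called higher in Nrdc+/+ than in Nrdc-/- iMEF, by 0.47 and 0.66 on the log2 scale.

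Fatty acid synthesis is driven mainly by SREBP1. Of 17 such genes tested out of 20, 8 were lower and 2 higher in Nrdc+/+ than in Nrdc-/- iMEF, and 12 were lower and 2 higher in Nrdc-/-WT against Nrdc-/- iMEF, with medians of -0.36 and -0.56. Slc25a1, which exports the citrate that feeds both pathways, was 21.67 and 18.98 RPKM in Nrdc+/+ iMEF, 62.8 and 68.3 in Nrdc-/- iMEF, and 29.3 and 29.3 in Nrdc-/-WT iMEF. Nrdc-/- iMEF alone was high, as for Mvk. Gpam, an acyltransferase of glycerolipid synthesis, was also called lower in both, by 0.85 and 0.40 on the log2 scale. Mid1ip1, a partner of acetyl-CoA carboxylase, ran the other way, with 35.5 and 36.9 RPKM in Nrdc+/+ iMEF, 0.652 and 0.518 in Nrdc-/- iMEF, and 2.62 and 2.52 in Nrdc-/-WT iMEF. Agpat2, a later acyltransferase, was likewise called higher in both lines, by 2.77 and 1.44 on the log2 scale.

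Of 17 LXR and oxysterol genes, 8 were tested, of which 6 were lower and 1 higher in Nrdc+/+ than in Nrdc-/- iMEF, and 1 was lower and 1 higher in Nrdc-/-WT against Nrdc-/- iMEF. The medians were -1.12 and 0.15, and the first stayed -1.12 with Cyp7b1, at 0 in a whole line, set against a floor of 3 reads over that line. Cyp7b1, which inactivates oxysterols, had 0 reads in Nrdc+/+ iMEF, 7.60 and 6.85 RPKM in Nrdc-/- iMEF, and 8.86 and 9.25 in Nrdc-/-WT iMEF. Pltp, a phospholipid transfer protein and LXR target, was similarly low in Nrdc+/+ iMEF alone, at 1.97 and 2.02 RPKM against 27.8 to 33.7 in the other 4 libraries. Arl4c, another LXR target, was high in Nrdc+/+ iMEF, at 39.7 and 41.5 RPKM against 6.10 to 9.73. Cyp7b1 and Pltp thus stood far from Abca1, whose low line was Nrdc-/- iMEF.

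Genes that use isoprenoids for prenylation, dolichol and ubiquinone had few calls in Nrdc-/-WT iMEF. Of 21, 7 were higher and 3 lower in Nrdc+/+ than in Nrdc-/- iMEF, and 1 was higher and 3 lower in Nrdc-/-WT against Nrdc-/- iMEF, or 19.05% called beside 43.2% of all genes, with medians of 0.09 and -0.06. Rce1, a protease of prenylated proteins, and Dolk, dolichol kinase, were called lower in Nrdc+/+ than in Nrdc-/- iMEF, at log2 -1.15 and -0.68. Pggt1b, a subunit of a protein prenylation enzyme, and Coq2, of ubiquinone synthesis, were called higher, at log2 0.61 and 0.81. None of these 4 was called between Nrdc-/-WT and Nrdc-/- iMEF.

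Sterol trafficking and lysosomal lipid genes gave 12 lower and 8 higher of 27 tested in Nrdc+/+ against Nrdc-/- iMEF, and 16 lower and 4 higher in Nrdc-/-WT against Nrdc-/- iMEF, with medians of -0.13 and -0.48. Scarb2, a lysosomal membrane protein, was 13.3 and 14.5 RPKM in Nrdc+/+ iMEF, 48.8 and 45.1 in Nrdc-/- iMEF, and 13.3 and 12.5 in Nrdc-/-WT iMEF, so the Nrdc-expressing lines overlapped far below Nrdc-/- iMEF. Lipa, the lysosomal acid lipase that frees cholesterol from its esters, was called lower in both, by 0.97 and 0.48 on the log2 scale. Osbpl9 and Osbpl5, oxysterol-binding protein relatives, were called higher in both, by 0.91 and 0.99 for Osbpl9 and by 0.98 and 0.53 for Osbpl5.

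**Figure D5:**
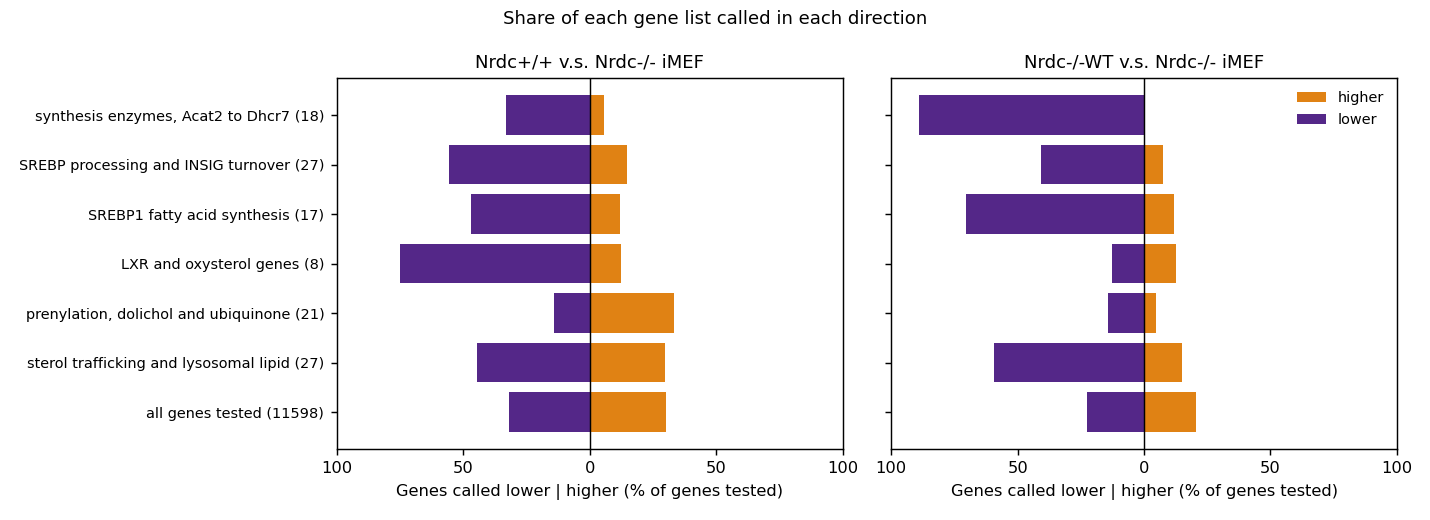
Share of tested genes called higher (orange, to the right) or lower (purple, to the left) in each list (y axis, with the number of genes tested), in percent (x axes), for Nrdc+/+ (left panel) and Nrdc-/-WT iMEF (right panel) against Nrdc-/- iMEF. In Nrdc-/-WT iMEF 16 of 18 synthesis enzymes were called lower, beside 22.7% of all 11598 genes tested.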

How the data were processed

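RNA-seq of 6 libraries was analysed, grouped by the sample labels. Poly(A) RNA captured on oligo(dT) beads was, per the methods, sequenced on Ion Proton sequencers and aligned to mm9 with STAR, then Bowtie2 in local mode. Reads were counted with featureCounts, and the authors used edgeR to turn these counts into RPKM of Ensembl protein-coding genes, deposited as log2 values. The sources used here give no tool versions. The tests were designed for RPKM, not log2 values. The deposited log2 values hold an equal floor, which was subtracted to give RPKM. Multiplied by gene length, 100% of the low values tested came out as whole reads within 0.05. Counting error alone underlies the floor of 3 reads for a count of 0.

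Tests used limma 3.58.1 in R 4.3.3 (lmFit and trended eBayes) on log2(RPKM + 0.25) for the 11598 genes averaging 0.5 RPKM or more, over all 6 libraries, with 3 residual and 4.98 prior degrees of freedom and Benjamini-Hochberg adjustment. The code was tested on simulated data. Promoters were searched in Python 3.11.15, and figures drawn with matplotlib 3.10.9. Of the 24 promoter matches, 1 used the current symbol. Named genes were all members and, from each other list, up to 4 called genes averaging 5 RPKM or more, the 2 highest and 2 lowest in Nrdc+/+ against Nrdc-/- iMEF. Genes that share reads with a relative or an overlapping gene were named after their values were seen. The members and lists were chosen with earlier results of these data known. Alternatives (22) covered pseudocount, filter, scaling, thresholds, model and each library left out.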

Additional observations from a re-analysis of the deposited data

How the results depend on the processing

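No called sterol gene and no median reversed its direction under the 22 alternatives, while values near 0 that were not called changed sign for Ebp, Npc2, Abca1, Srebf2, Sc4mol and Scap. With a fold of at least 2, 5, 11 and 5 sterol genes were called in Nrdc+/+ against Nrdc-/-, Nrdc-/-WT against Nrdc-/- and Nrdc+/+ against Nrdc-/-WT iMEF, beside 25.1%, 12.1% and 23.5% of all genes. With no minimum fold, 22 were called in the first comparison (6 higher and 16 lower), beside 74.5% of all genes. The median of the second comparison (-0.87) was -0.80 with a pseudocount of 1 RPKM, -0.83 without the filter on low values, -0.84 with median ratio scaling, -0.81 with upper quartile scaling, -0.80 with quantile normalization and -0.83 with voom on the recovered reads. That of the third (0.41) was 0.38 with a pseudocount of 1 RPKM, 0.39 with median ratio scaling, 0.35 with upper quartile scaling, 0.45 with quantile normalization and 0.35 with voom. Leaving out each library in turn gave medians of -0.23 to -0.17, -0.87 to -0.85 and 0.39 to 0.43. A line left with 1 library is assumed there to vary like the others.

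The replicate numbers are shared by the lines, but nothing shows that they pair the libraries, whose deviations correlated at -0.03, -0.10 and 0.01. With the replicate number as a block, the counts were 12, 22 and 17, beside 62.2%, 43.1% and 60.5% of all genes. These counts and the medians of -0.23, -0.87 and 0.41 were as without it. Some calls near the 1.3-fold limit were lost: Fdft1 between Nrdc-/-WT and Nrdc-/- iMEF, and Fdps, Scap, Npc1 and Srebf1 between Nrdc+/+ and Nrdc-/-WT iMEF, each lost it under at least 1 scaling, pseudocount or left-out library. Between these lines Pmvk gained a call with upper quartile scaling (-0.38), with voom (-0.38) and without Nrdc-/-WT replicate 1 (-0.41). Ggps1 gained a call without Nrdc-/-WT replicate 1 (0.45). Tm7sf2 gained a call with quantile normalization (0.55) and without Nrdc+/+ replicate 2 (0.70). With 2 libraries per line, small differences are not resolved, and low genes such as Tm7sf2, with 119 to 253 reads, are less precise.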
